A study of Mus musculus with 20 samples.

Results

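Both strands of the miR-21a hairpin, miR-21a-5p and miR-21a-3p, were counted in 20 mouse small RNA libraries, all from cells cultured out of bone marrow. Tags of 18 to 26 nt that matched the annotated hairpin without a mismatch were split by arm and kept where they started within 2 nt of the most abundant start of the arm. The 2 arms are 2 of 1198 miRNA arms detected, with 36 distinct tags and 31365495 reads for miR-21a-5p and 23 distinct tags and 464783 reads for miR-21a-3p. Both arms passed the filter on low values and are among the 371 arms tested.

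Each library is 1 condition. Macrophages were grown from bone marrow with M-CSF and dendritic cells with GM-CSF, both from hybridoma supernatant, out of miR-155 k.o. mice (B6.Cg-Mir155tm1.1Rsky/J, a germline deletion) or wild-type C57BL/6 mice of 8 to 12 weeks. Each of these 4 combinations of cell type and genotype, called cultures below, was given 1 of several stimuli or left unstimulated. The stimuli were LPS, a bacterial cell wall component that activates Toll-like receptor signalling, oxLDL, eLDL and LDL. Dendritic cells received 200 ng/ml LPS overnight at day 8 to 9. Doses and times for LPS on macrophages and for the lipoproteins were not found in the labels, which also leave the abbreviations oxLDL and eLDL unexplained and are silent on whether the libraries stem from different mice or cultures. Since each condition has a single library, an LPS effect was fitted over 2 matched pairs (knockout and wild type). A genotype effect was fitted over 5 pairs and a cell type difference over 10. All were tested against the same scatter, which is how far stimulus effects depart between knockout and wild type within a cell type. It is pooled over both cell types and all stimuli, so it is not the spread of the 10 cell type pairs or of the 2 LPS pairs alone. The p-values measure that scatter only. The labels do not show whether it holds a spread between mice. Genotype or cell type therefore cannot be told apart from the mice or bone marrow preparations used.

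A miRNA hairpin is cut by Drosha in the nucleus and by Dicer in the cytoplasm into a duplex of 2 strands, a 5p and a 3p arm. Argonaute usually keeps a single strand as guide, and the other is degraded. The ratio of the arms compares the reads present of each strand, and strand choice itself was not measured. miR-21 is an abundant miRNA of myeloid cells, transcribed from a promoter within the Vmp1 locus that responds to AP-1 and STAT3. Its 5p strand is known to repress Pdcd4, and its expression is known to follow Toll-like receptor signalling. Nucleotides 2 to 8 of a mature miRNA, the seed, set most of its target choice, and untemplated nucleotides can be added to the 3′ end by nucleotidyl transferases.

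The mature sequences from RefSeq (GRCm38.p6) are shown with the seed in capitals. The seed separates the arms from all but 1 of the other RefSeq mouse matures searched.
miR-21a-5p: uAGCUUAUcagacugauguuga
miR-21a-3p: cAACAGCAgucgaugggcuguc
miR-21c: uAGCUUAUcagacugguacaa
Of 1679 RefSeq mouse matures, only miR-21c has the seed of miR-21a-5p and none has that of miR-21a-3p. No read matched miR-21c and 1 read matched miR-21b, so the reads below come from a single locus. The hairpin is 92 nt long and lies on the minus strand at chr11:86584067-86584158 (GRCm38, GENCODE M21), inside exon 12 and the 3′ UTR of Vmp1, a gene of autophagosome formation. The 5p mature lies at chr11:86584120-86584141 and the 3p mature at chr11:86584082-86584103.

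The reads were spread over a few 3′ ends, shown here as the deposited DNA tags with untemplated bases in capitals, because these ends and tails differed between libraries. Positions are counted from 1 at the first base of the most abundant tag of the arm.
5p, 22 nt: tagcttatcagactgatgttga
5p, 23 nt: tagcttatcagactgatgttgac
5p, 24 nt: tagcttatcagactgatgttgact
5p, C tail: tagcttatcagactgatgttgacC
5p, A tail: tagcttatcagactgatgttgacA
3p, 21 nt: caacagcagtcgatgggctgt
3p, start shifted by 1: aacagcagtcgatgggctgtct
3p, start shifted by 2: acagcagtcgatgggctgtct
3p, U tail: caacagcagtcgatgggctgtT
3p, A tail: caacagcagtcgatgggctgA
The 23-nt tag held 44.7% of the exact miR-21a-5p reads over all libraries and the 22-nt tag, which is the RefSeq mature, 35.1%. The 24-nt tag held 12.1% and the 21-nt tag 5.42%. For miR-21a-3p the 21-nt tag, 1 base shorter than the RefSeq mature, held 80% of the exact reads. The tags with a start shifted by 1 and by 2 nt both ended at position 23 and held 2.89% and 2.82%.

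The libraries held 10.3 to 22.8 M reads, of which 5.13 to 11.8 M matched a miRNA hairpin. Levels are given as CPM, reads per 1000000 hairpin reads, and a count of 3 reads is 0.254 to 0.584 CPM. miR-155-5p, the deleted miRNA, had 3.92 to 5.87 CPM in knockout macrophages against 5324 to 39697 CPM in wild-type macrophages, and 0.307 to 0.782 CPM in knockout dendritic cells against 128 to 9521 CPM in wild-type dendritic cells. The 3 listed myeloid and blood miRNAs summed to 21454 to 32291 CPM in macrophages and 16653 to 25932 CPM in dendritic cells. The lists of other cell types stayed far lower. The 2 lymphoid markers summed to 63.6 to 167 CPM in macrophages and 6.15 to 24 CPM in dendritic cells, and the 6 epithelial markers to 186 to 257 CPM in macrophages and 149 to 238 CPM in dendritic cells. The 7 mesenchymal markers, 1 of which was at 0 throughout, summed to 30.4 to 525 CPM in macrophages and 32.2 to 293 CPM in dendritic cells. The erythroid list (4 markers, 1 at 0 throughout) reached at most 2.22 CPM in macrophages and 9.62 CPM in dendritic cells, the 2 endothelial markers 16.8 and 18.2 CPM, and the liver marker 4.57 and 1.69 CPM. The part of other cells in the results was not tested.

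The macrophage libraries differ from the dendritic cell libraries at base 20 of the read. Of all macrophage reads, 6.75 to 7.08% had an unread base there, against at most 8.35e-06% in dendritic cells. Relative to the exact 23-nt tag of miR-21a-5p, tags with another base at position 20 amounted to 8.77 to 9.17% in macrophages and 0.339 to 0.379% in dendritic cells. With any base allowed at position 20, miR-21a-5p had a median of 139368 CPM in macrophages and 261063 CPM in dendritic cells, against 133978 CPM and 261479 CPM for exact matches. All called levels and ratios below remained called with that matching. This base call pattern and the cell type go together in all 20 libraries and cannot be told apart.

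Among all miRNA arms, miR-21a-5p ranked second in each of the 10 macrophage libraries and first in each of the 10 dendritic cell libraries. It took 9.12 to 20.5% of hairpin reads in macrophages (median 13.4%) and 20.1 to 30.9% in dendritic cells (median 26.1%). The 2 ranges overlapped in 1 pair of libraries, unstimulated wild-type macrophages at 20.5% and wild-type dendritic cells with oxLDL at 20.1%. miR-21a-3p, the strand with fewer reads, ran from 669 to 2812 CPM in macrophages (median 987) and from 1577 to 10035 CPM in dendritic cells (median 3518). Its rank was 36 to 68 in macrophages and 23 to 45 in dendritic cells. In bulk RNA, a smaller share of cells that express a miRNA and less of it per cell cannot be told apart. Exact binomial intervals at 95% lay within 0.24% of the value for the 5p levels and within 2.9% for the 3p levels and the arm ratio, which covers counting error only.

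**Figure D1:**
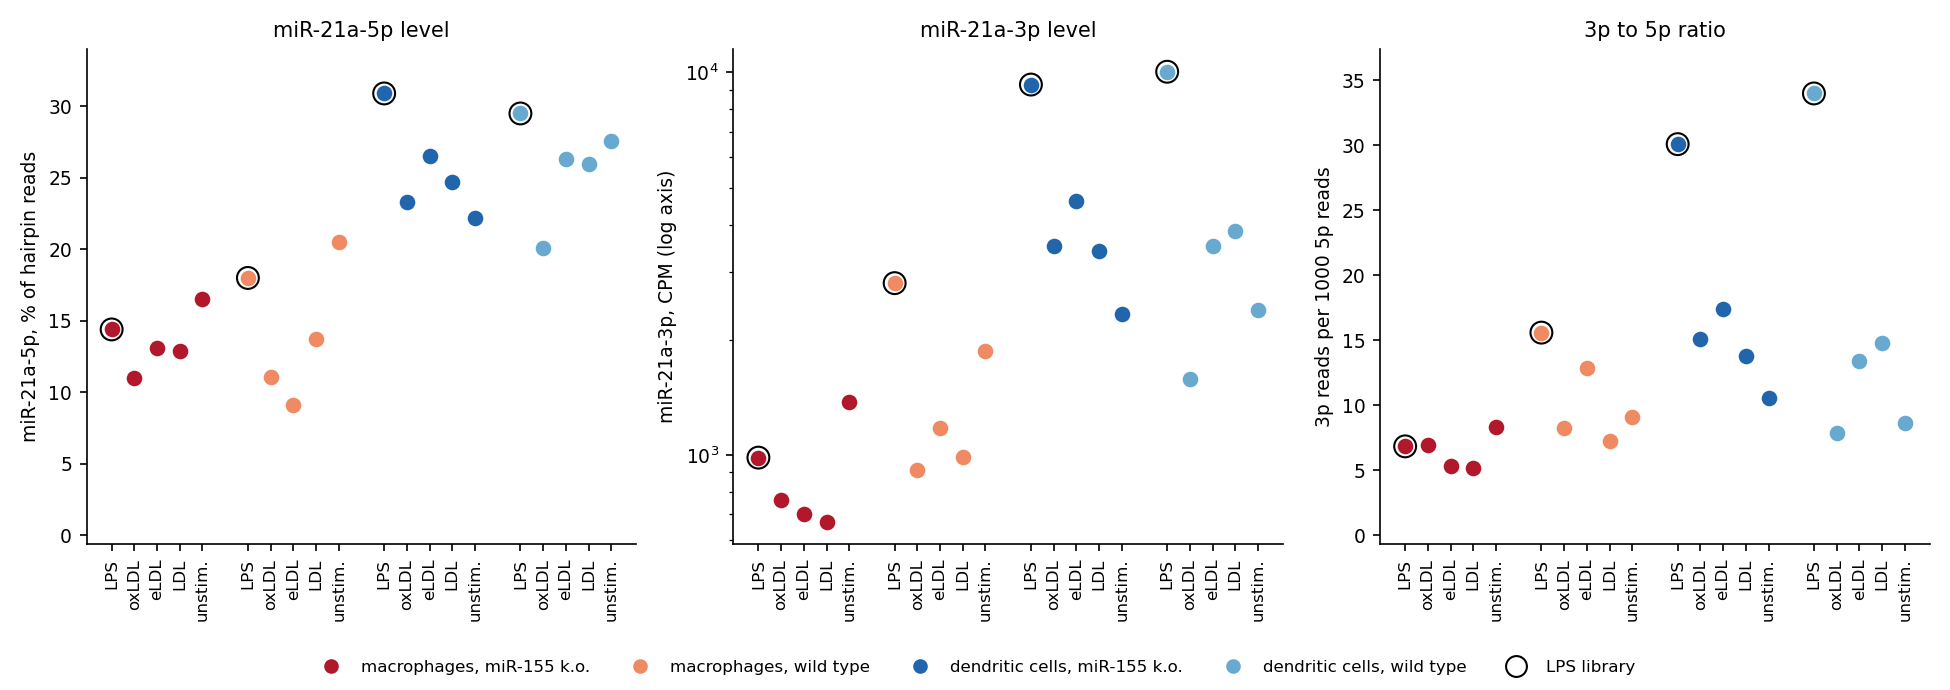
Share of hairpin reads of miR-21a-5p (left), level of miR-21a-3p on a log axis (middle) and 3p reads per 1000 5p reads (right) in each of the 20 libraries. Each point is 1 library and a ring marks LPS. The 2 LPS-treated dendritic cell libraries stand above all others in the middle and right panels, at 9290 and 10035 CPM and at 30.1 and 34 reads per 1000.

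Both arms were lower in macrophages than in dendritic cells, the 3p arm by more. On the log2 scale after TMM scaling, miR-21a-5p differed by −0.81 ± 0.08 (SE; edgeR's quasi-likelihood test, adjusted p = 4.6e-07) and miR-21a-3p by −1.70 ± 0.14 (edgeR, adjusted p = 9.9e-08). In CPM both arms were lower in 10 of 10 matched pairs. Of the 371 arms, 79.5% were called in this comparison, so a difference between the cell types is the usual case. The 3p to 5p ratio was lower as well, with −0.88 ± 0.16 (limma, adjusted p = 0.00131), in 8 of 10 pairs, in a comparison in which 42.5% of 134 hairpins were called. The ratio was 5.18 to 15.6 3p reads per 1000 5p reads in macrophages and 7.84 to 34 in dendritic cells, which overlap.

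Both arms rose with LPS in dendritic cells, miR-21a-3p by more than miR-21a-5p. miR-21a-3p had 9290 and 10035 CPM in LPS-treated knockout and wild-type dendritic cells, against 2342 and 2388 CPM in unstimulated knockout and wild-type dendritic cells. The groups are 3.97-fold and 4.2-fold apart within the pairs, and no other dendritic cell library exceeded 4623 CPM. miR-21a-3p rose by 2.62 ± 0.32 on the log2 scale (edgeR, adjusted p = 8.9e-05), and 24.8% of the 371 arms were called, with a median change of 0.08 over all of them. It was the 11th largest increase of 371.

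miR-21a-5p had 309020 and 294771 CPM in LPS-treated knockout and wild-type dendritic cells, against 221911 and 275588 CPM in unstimulated knockout and wild-type dendritic cells. The ratio within the pairs was 1.39 and 1.07, and the fitted change after TMM scaling was 0.86 ± 0.19 (edgeR, adjusted p = 0.00424). Scaling decides this call: with total hairpin reads as scale the value was 0.28 while the median of all 371 arms was −0.47 with 26 arms called higher and 123 lower, against 59 and 33 with TMM. With upper-quartile scaling the value was 0.62, and neither was called. The call also ended without the wild-type LPS library (0.74), the knockout LPS library (0.76) or the unstimulated knockout library (0.58). The increase of miR-21a-3p was called under each of these settings (2.03 to 2.78).

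The arm ratio does not depend on the scaling. Dendritic cells with LPS had 30.1 and 34 3p reads per 1000 5p reads in knockout and wild-type cultures, against 10.6 and 8.66 in unstimulated knockout and wild-type cultures. The other 6 dendritic cell libraries lay between 7.84 and 17.4. The ratio rose by 1.74 ± 0.35 on the log2 scale (limma, adjusted p = 0.00987), in a comparison in which 17.9% of 134 hairpins were called, 9 with a higher and 15 with a lower ratio, with a median of −0.15. miR-21a had the 9th highest change, and the called changes of the largest size were those of let-7c-1 (−3.22), miR-147 (2.63) and miR-582 (2.62). The call ended without the wild-type LPS library (1.46) or the unstimulated wild-type library (1.73).

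**Figure D2:**
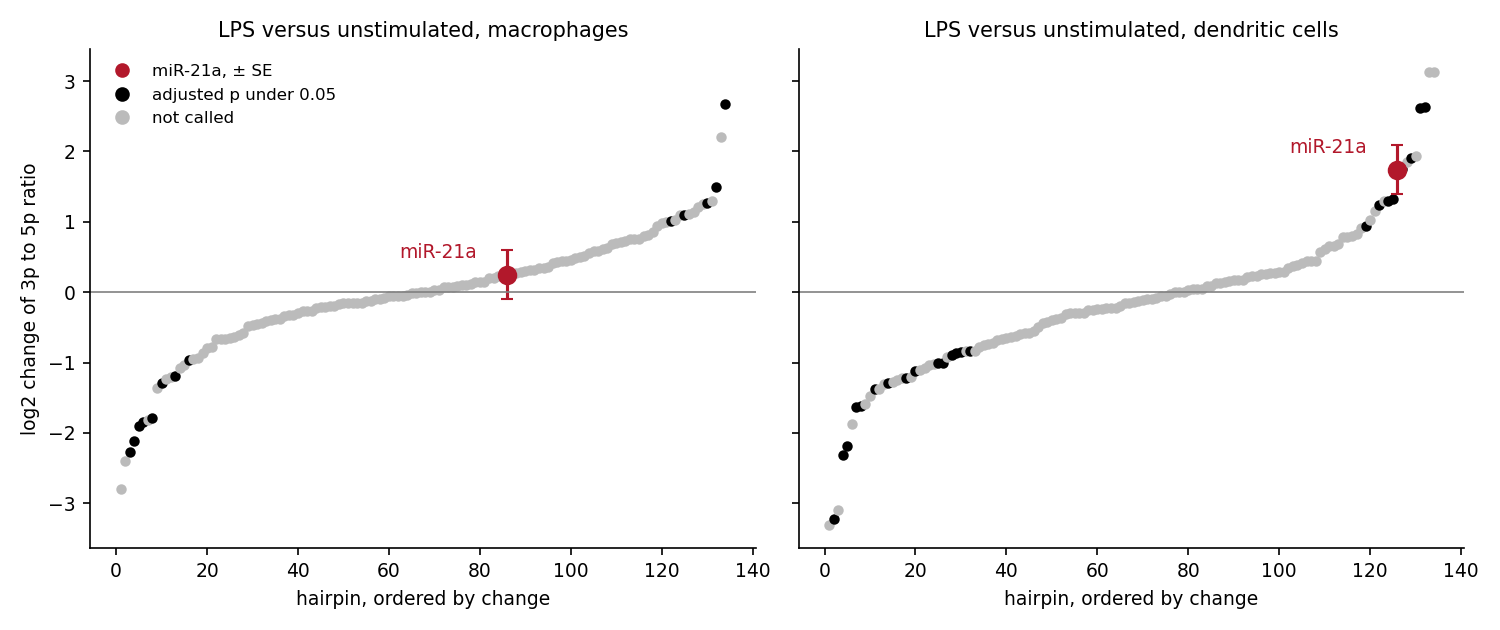
Log2 change of the 3p to 5p ratio with LPS for 134 hairpins, ordered by size, in macrophages (left) and dendritic cells (right). Black points have an adjusted p under 0.05, and miR-21a is red with its SE. miR-21a lies at 0.25 in the macrophage panel and at 1.74 in the dendritic cell panel, near its upper end.

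In macrophages neither arm was called with LPS. miR-21a-3p had 984 and 2812 CPM in LPS-treated knockout and wild-type macrophages, against 1376 and 1865 CPM in unstimulated knockout and wild-type macrophages. With LPS the level was lower in the knockout pair and higher in the wild-type pair, and the fitted change was 0.08 ± 0.30 (edgeR, adjusted p = 0.889). miR-21a-5p had 143739 and 179954 CPM in LPS-treated knockout and wild-type macrophages, against 165031 and 204952 CPM in unstimulated ones, with a change of −0.22 ± 0.19 (edgeR, adjusted p = 0.453). In this comparison 19.7% of 371 arms were called. The ratio was 6.85 and 15.6 per 1000 with LPS, against 8.34 and 9.1 per 1000 without, in knockout and wild-type macrophages, a change of 0.25 ± 0.35 (limma, adjusted p = 0.731) where 9.7% of hairpins were called.

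The LPS response differed between the cell types for both arms. The response in macrophages minus that in dendritic cells was −2.54 ± 0.43 for miR-21a-3p (edgeR, adjusted p = 0.00218) and −1.08 ± 0.27 for miR-21a-5p (edgeR, adjusted p = 0.0171), with 13.5% of 371 arms called. With total hairpin reads 80 arms were called higher and 12 lower in this comparison, against 17 and 33 with TMM, and the median moved to 0.50 against −0.10. The 5p value was −0.47 with total hairpin reads and −0.87 with upper-quartile scaling, called in neither. Its call also ended without either LPS library of dendritic cells, the unstimulated knockout dendritic cells, the LPS library of knockout macrophages or the unstimulated wild-type macrophages (−0.97 to −0.72). The difference in the ratio, −1.49 ± 0.49, was not called (limma, adjusted p = 0.122), where 2.24% of hairpins were. LPS dose and time are known for dendritic cells only, and their part in the difference cannot be told apart from the cell type.

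**Figure D3:**
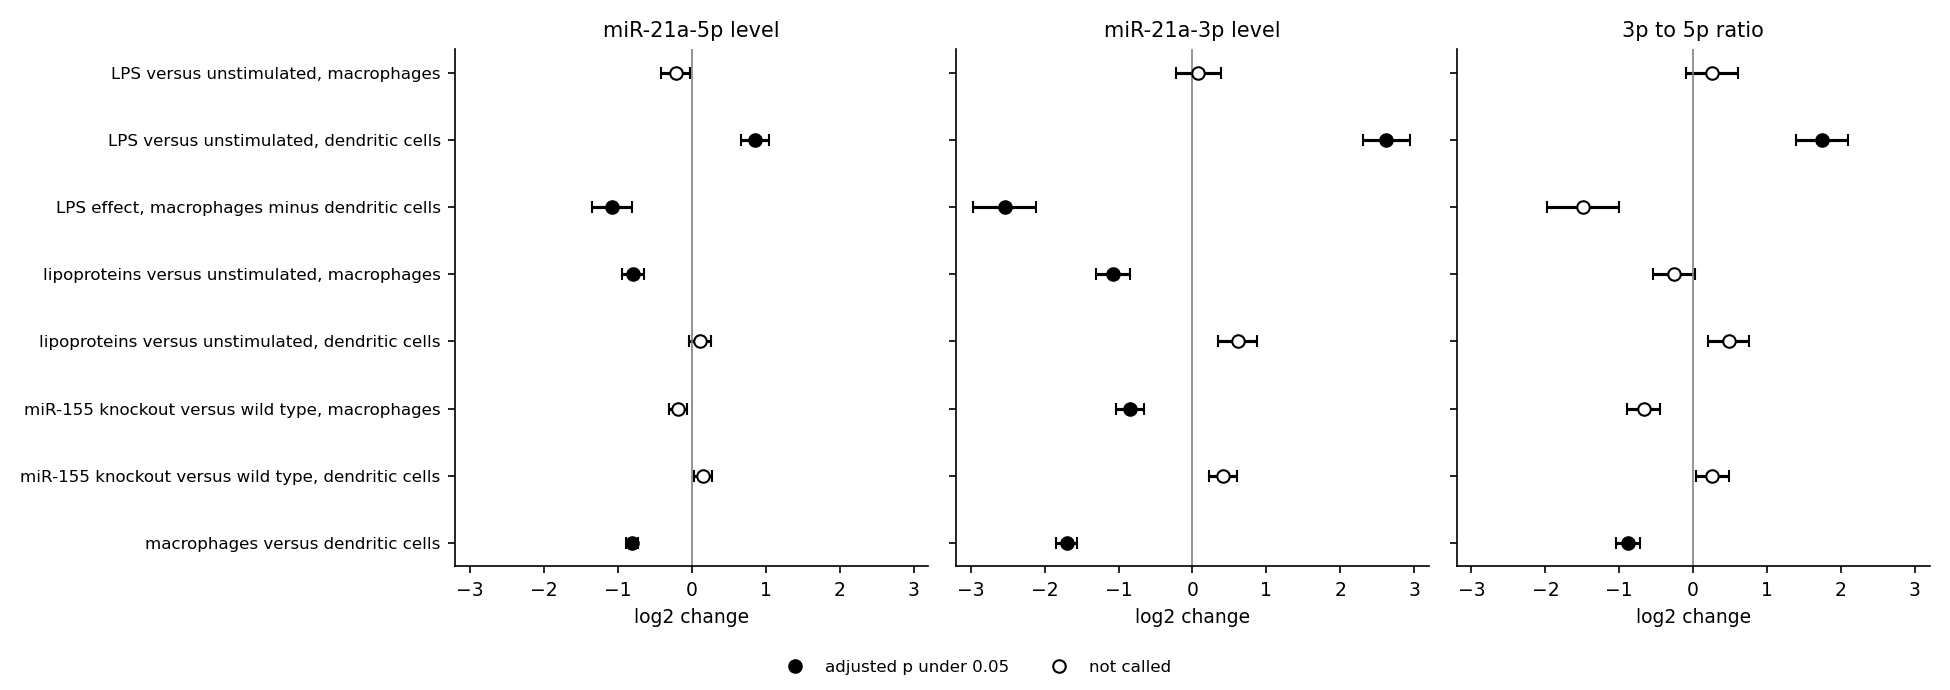
Fitted log2 changes ± SE of both arms and of their ratio in 8 comparisons, from edgeR for levels and limma for the ratio; filled points have an adjusted p under 0.05. The row for LPS in dendritic cells holds the called increases, at 0.86, 2.62 and 1.74, and the called values of the other rows are negative.

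Lipoproteins went with lower levels of both arms in macrophages. miR-21a-5p had 110274, 131219 and 129212 CPM with oxLDL, eLDL and LDL in knockout macrophages and 110972, 91195 and 136736 CPM in wild-type macrophages, against 165031 and 204952 CPM in unstimulated knockout and wild-type macrophages. miR-21a-3p had 763, 699 and 669 CPM with the 3 lipoproteins in knockout macrophages and 914, 1179 and 990 CPM in wild-type macrophages, against 1376 and 1865 CPM in unstimulated ones. All 6 lipoprotein libraries lay below both unstimulated libraries for each arm. The change was −0.80 ± 0.15 for miR-21a-5p (edgeR, adjusted p = 0.00255) and −1.07 ± 0.23 for miR-21a-3p (edgeR, adjusted p = 0.00855), where 12.9% of 371 arms were called, and the ratio was not called (−0.26 ± 0.28; limma, adjusted p = 0.783; 0.746% of 134 hairpins called). The comparison rests on 2 unstimulated libraries. Without the wild-type one neither call held (−0.62 for 5p and −1.22 for 3p), and without the knockout one the 3p call ended (−0.77).

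In dendritic cells the lipoproteins gave no call for either arm. miR-21a-3p had 3512, 4623 and 3403 CPM with oxLDL, eLDL and LDL in knockout cells and 1577, 3525 and 3853 CPM in wild-type cells, against 2342 and 2388 CPM in unstimulated knockout and wild-type cells. Only wild-type cells with oxLDL lay below the unstimulated libraries. The change was 0.61 ± 0.26 (edgeR, adjusted p = 0.334), and that of miR-21a-5p 0.11 ± 0.15 (edgeR, adjusted p = 0.835), where 0.27% of 371 arms were called. The ratio changed by 0.48 ± 0.28 (limma, adjusted p = 0.704; 0% of hairpins called, 8 at an unadjusted p under 0.05). A difference between the cell types in the lipoprotein effect, tested after the values were seen, was −1.68 ± 0.35 for miR-21a-3p (edgeR, adjusted p = 0.0144) and −0.91 ± 0.22 for miR-21a-5p (edgeR, adjusted p = 0.0259), with 5.93% of arms called. Neither was called with upper-quartile scaling (−1.64 and −0.87), nor the 5p value with total hairpin reads (−0.63). The 3p call ended without the unstimulated library of wild-type dendritic cells, of knockout dendritic cells or of knockout macrophages (−1.78 to −1.37), and the 5p call without that of knockout dendritic cells (−0.71) or of wild-type macrophages (−0.73).

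Neither oxLDL nor eLDL gave a call against LDL, and oxLDL was not tested against eLDL. For oxLDL against LDL, miR-21a-3p changed by −0.04 ± 0.30 in macrophages and −0.42 ± 0.30 in dendritic cells, and miR-21a-5p by −0.36 ± 0.19 and −0.09 ± 0.19. For eLDL against LDL the 3p values were 0.11 ± 0.30 in macrophages and 0.19 ± 0.30 in dendritic cells, and the 5p values −0.30 ± 0.19 and 0.09 ± 0.19. The adjusted p of these 8 values in edgeR lay between 0.773 and 0.998. In each of the 4 comparisons edgeR called 0% of 371 arms, with 9 to 22 at an unadjusted p under 0.05, and DESeq2 called 0.

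Set against the lipoprotein-treated libraries in place of the unstimulated ones, LPS gave higher levels of both arms in each cell type. In macrophages miR-21a-3p was higher by 1.15 ± 0.24 (edgeR, adjusted p = 0.00455) and miR-21a-5p by 0.58 ± 0.15 (edgeR, adjusted p = 0.016), with 14% of 371 arms called. Both macrophage calls ended without the wild-type LPS library, with 0.56 for 3p and 0.37 for 5p. In dendritic cells the values were 2.01 ± 0.23 for miR-21a-3p (edgeR, adjusted p = 3.7e-05) and 0.75 ± 0.15 for miR-21a-5p (edgeR, adjusted p = 0.00144), with 28.3% called. The 5p value was 0.30 and not called with total hairpin reads, where 28 arms were called higher and 99 lower against 71 and 34 with TMM, and its call ended without the wild-type (0.63) or knockout (0.65) LPS library. The ratio was called in dendritic cells (1.26 ± 0.28; limma, adjusted p = 0.0125; 17.9% of hairpins called), though not without the wild-type LPS library (0.98), and not in macrophages (0.51 ± 0.28; limma, adjusted p = 0.351; 2.24% called). These comparisons share the LPS libraries with those against unstimulated cells.

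miR-155 knockout macrophages had less miR-21a-3p than wild-type macrophages. The level was 984, 763, 699, 669 and 1376 CPM in knockout macrophages with LPS, oxLDL, eLDL, LDL and no stimulus, against 2812, 914, 1179, 990 and 1865 CPM in wild-type macrophages in the same order. The knockout library was lower in 5 of 5 pairs, at 0.35 to 0.835 of the wild type. These pairs differ in stimulus and are not known to stem from different mice, so genotype and mouse cannot be told apart. The change was −0.85 ± 0.19 (edgeR, adjusted p = 0.00587), in a comparison where 23.7% of 371 arms were called. With upper-quartile scaling the value was −0.56 and the call ended, while the median of all arms was 0.26 with 98 called higher and 34 lower, against a median of −0.03 with 36 and 52 under TMM. miR-21a-5p was lower in 4 of 5 pairs in CPM, with −0.19 ± 0.12 (edgeR, adjusted p = 0.3), and at 0.10 with upper-quartile scaling. It was called without the eLDL library of wild-type (−0.39) or of knockout macrophages (−0.35). The ratio was lower in 5 of 5 pairs, with 5.18 to 8.34 3p reads per 1000 5p reads in knockout macrophages and 7.24 to 15.6 in wild-type macrophages, and did not pass the test over all hairpins (−0.67 ± 0.22; limma, adjusted p = 0.168; 5.22% called).

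In dendritic cells the genotype gave no call. miR-21a-3p had 2342 to 9290 CPM in knockout and 1577 to 10035 CPM in wild-type dendritic cells, with 2 of 5 pairs higher in the knockout and a change of 0.41 ± 0.19 (edgeR, adjusted p = 0.212). miR-21a-5p changed by 0.15 ± 0.12 (edgeR, adjusted p = 0.518), where 9.97% of 371 arms were called, and the ratio by 0.26 ± 0.22 (limma, adjusted p = 0.76; 2.24% called). The genotype effect in macrophages minus that in dendritic cells, tested after the values were seen, was −1.26 ± 0.27 for miR-21a-3p (edgeR, adjusted p = 0.00682; 14.8% called) and −0.34 ± 0.17 for miR-21a-5p (edgeR, adjusted p = 0.207). The 3p value was −0.89 with upper-quartile scaling and not called, where 47 arms were called higher and 19 lower against 12 and 43 with TMM. The 5p difference was called without the eLDL library of wild-type (−0.41) or knockout macrophages (−0.50). The same difference in the ratio was −0.93 ± 0.31 (limma, adjusted p = 0.223; 1.49% called), and that of the lipoprotein effect −0.74 ± 0.40 (limma, adjusted p = 0.57; 0.746% called).

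The LPS response did not pass the test of a difference between genotypes. For miR-21a-3p the knockout response minus the wild-type response was −1.07 ± 0.35 in macrophages (edgeR, adjusted p = 0.303) and −0.56 ± 0.35 in dendritic cells (edgeR, adjusted p = 0.993). For miR-21a-5p it was −0.41 ± 0.30 in macrophages (edgeR, adjusted p = 0.969) and −0.01 ± 0.30 in dendritic cells (edgeR, adjusted p = 1). In this fit edgeR called 1.35% of 371 arms in macrophages and 0% in dendritic cells, where 21 had an unadjusted p under 0.05 and DESeq2 called 1. With no filter on low counts the macrophage 3p value of −1.10 was called.

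Other miRNAs known from inflammatory signalling moved as well. Of a list of 18, all tested, LPS in dendritic cells raised 9, lowered 2 and left 7 without a call. Over all 371 arms, 24.8% were called, 59 higher and 33 lower. The median change was 0.69 on the list against 0.08 over all arms. With LPS in macrophages 5 rose, 5 fell and 8 were not called, where 19.7% of all arms were called, 41 higher and 32 lower, and the median was 0.18 on the list against 0.06 over all arms. miR-147-3p, an LPS-induced miRNA, rose by 1.39 ± 0.25 in macrophages and by 7.10 ± 0.35 in dendritic cells. miR-146a-5p, which represses the Toll-like receptor adaptors Irak1 and Traf6, rose by 1.06 ± 0.23 in macrophages and was not called in dendritic cells (0.59 ± 0.22). let-7e-5p changed by −1.14 ± 0.22 in macrophages and by 1.61 ± 0.23 in dendritic cells, both called. miR-223-3p, a miRNA of granulocytes and monocytes, fell by 1.10 ± 0.14 in macrophages and by 0.75 ± 0.14 in dendritic cells. In knockout against wild-type macrophages 4 of the 18 were higher and 10 lower, with a median of −0.81 against −0.03 over all arms, of which 23.7% were called, 36 higher and 52 lower. In dendritic cells 2 were higher and 2 lower, with a median of 0.12 against 0.09 over all arms, of which 9.97% were called. The list holds both arms of the deleted miR-155. They are the 2 lower in dendritic cells and are among the 10 lower in macrophages, which follows from the deletion. They enter the medians of the list as well. Between macrophages and dendritic cells 9 were higher and 7 lower, where 79.5% of all arms were called, 153 higher and 142 lower.

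After centring within each cell type, the arm whose profile over the 20 libraries was most like that of miR-21a-5p was miR-21a-3p (Pearson r = 0.84), then miR-511-5p (0.78) and miR-28a-5p (0.76). For miR-21a-3p the nearest were miR-511-5p (0.91), miR-27b-3p (0.89) and miR-328-5p (0.87). The 2 arms correlated with r = 0.77 in the 10 macrophage libraries and 0.96 in the 10 dendritic cell libraries, and with r = 0.69 over the 16 libraries without LPS. The libraries share the scaling and the hairpin total, and the values describe likeness only.

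The mean 3′ end of miR-21a-3p lay at an earlier nucleotide with LPS in both cell types. Its mean end was at nucleotide 20.83 and 20.8 in LPS-treated knockout and wild-type macrophages, against 21.14 in both unstimulated macrophage libraries. It was 20.89 and 20.88 in LPS-treated knockout and wild-type dendritic cells, against 21.17 and 21.12 in the unstimulated ones. The other 12 libraries lay between 21.04 and 21.14, so the 4 LPS libraries stand apart from all others. The change was −0.33 ± 0.02 nt in macrophages (limma, adjusted p = 1.4e-06) and −0.26 ± 0.02 nt in dendritic cells (limma, adjusted p = 6.5e-06). Lower mean ends were common with LPS. Of 193 arms, 44.6% were called in macrophages and 42% in dendritic cells, and 85 and 79 of those had a lower mean end. miR-21a-3p ranked 155th and 141st of 193 from the highest change. The difference between the cell types was −0.07 ± 0.03 nt (limma, adjusted p = 0.156; 3.63% called), and the genotype changes were 0.01 ± 0.01 nt in macrophages (adjusted p = 0.844; 2.07% called) and 0.02 ± 0.01 nt in dendritic cells (adjusted p = 0.548; 5.18% called), both in limma.

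Tags that end at nucleotide 23 were a smaller share with LPS and tags that end at nucleotide 20 a larger one. Tags that end at 23 held 6.03% and 3.62% of miR-21a-3p reads in LPS-treated knockout and wild-type macrophages and 3.42% and 2.55% in LPS-treated knockout and wild-type dendritic cells, against 8.77 to 12.8% in the other 16 libraries. Tags that end at nucleotide 20 held 8.36% and 6.89% in LPS-treated macrophages and 6.13% and 5.85% in LPS-treated dendritic cells, against 1.58 to 3.65% in the other 16. The groups do not overlap in either share. The 2 most abundant tags that end at 23 start 1 or 2 nt late, as printed above, which moves the seed. They are 22 and 21 nt long, and the main tag is 21 nt. A lower mean end is therefore not in full a shorter tag. The share of miR-21a-3p reads with a shifted start was 8.88% and 6.49% in LPS-treated knockout and wild-type macrophages and 6.44% and 5.48% in LPS-treated knockout and wild-type dendritic cells, against 10.1 to 14.5% in the other 16. Exact binomial intervals for shares of miR-21a-3p were at most 1.2 percentage points wide on either side, and for miR-21a-5p 0.13.

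The ends of miR-21a-5p differed mainly between the cell types. The mean end was 22.32 to 22.6 in macrophages and 22.6 to 22.77 in dendritic cells, a change of −0.20 ± 0.02 nt (limma, adjusted p = 4.7e-05; 49.7% of 193 arms called). The mean end of miR-21a-3p did not differ by the test (−0.01 ± 0.01 nt; limma, adjusted p = 0.552), and over tags of 20 to 24 nt it was higher in macrophages (0.05) and called. Tags of miR-21a-5p that end at nucleotide 24 held 8.49 to 13.5% of its reads in macrophages and 11.9 to 16.4% in dendritic cells.

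Short miR-21a-5p tags separated 8 macrophage libraries from all the others. Tags that end at nucleotide 19 held 1.88 to 2.97% and tags that end at nucleotide 18 held 0.568 to 1.14% of miR-21a-5p reads in these 8. The unstimulated knockout macrophages had 0.0466% and 0.0068% and the wild-type macrophages with LDL 0.0445% and 0.00464%, near the dendritic cells with at most 0.0442% and 0.00984%. The same 2 macrophage libraries had the lowest share of 18 and 19 nt tags over all other hairpins, 0.713% and 0.7%, against 1.19 to 1.77% in the other 8. Dendritic cells had 1.39 to 2.45% on this measure, though few short miR-21a-5p tags. The source of the short tags was not tested. They lower the mean 5p end of these 8 libraries, so they hold a part of the −0.20 nt between cell types. Exact matching also drops macrophage tags with another or an unread base at position 20, which shorter tags do not reach. This raises the share of short tags in macrophages. Over tags of 20 to 24 nt, a setting chosen after these values were seen, the difference kept its direction and its call.

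With LPS the mean end of miR-21a-5p changed by −0.12 ± 0.04 nt in macrophages (limma, adjusted p = 0.0427), a call close to the threshold, which ended in 17 of the 20 fits that left out 1 library (−0.15 to −0.03). The value nearest 0 came without the unstimulated knockout library, which lacks the short tags, and over tags of 20 to 24 nt it was −0.04 and not called. In dendritic cells the change was 0.10 ± 0.04 nt (limma, adjusted p = 0.0844), and 0.10 and called over tags of 20 to 24 nt. Here tags that end at nucleotide 24 held 14.6% and 16.4% in LPS-treated knockout and wild-type dendritic cells, against 11.9% and 12.3% in unstimulated ones. The difference between the cell types, −0.22 ± 0.06 nt, was not called (limma, adjusted p = 0.0696), but was over tags of 20 to 24 nt (−0.14). These values were also called without the unstimulated wild-type macrophages (0.10 and −0.31), and the dendritic cell value without the unstimulated knockout macrophages (0.10). Knockout cells had somewhat shorter 5p ends, by −0.11 ± 0.03 nt in macrophages (limma, adjusted p = 0.0583) and −0.08 ± 0.03 nt in dendritic cells (limma, adjusted p = 0.157). Neither passed the test, and both did over tags of 20 to 24 nt (−0.10 and −0.08) and without either unstimulated macrophage library (−0.15 and −0.08).

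**Figure D4:**
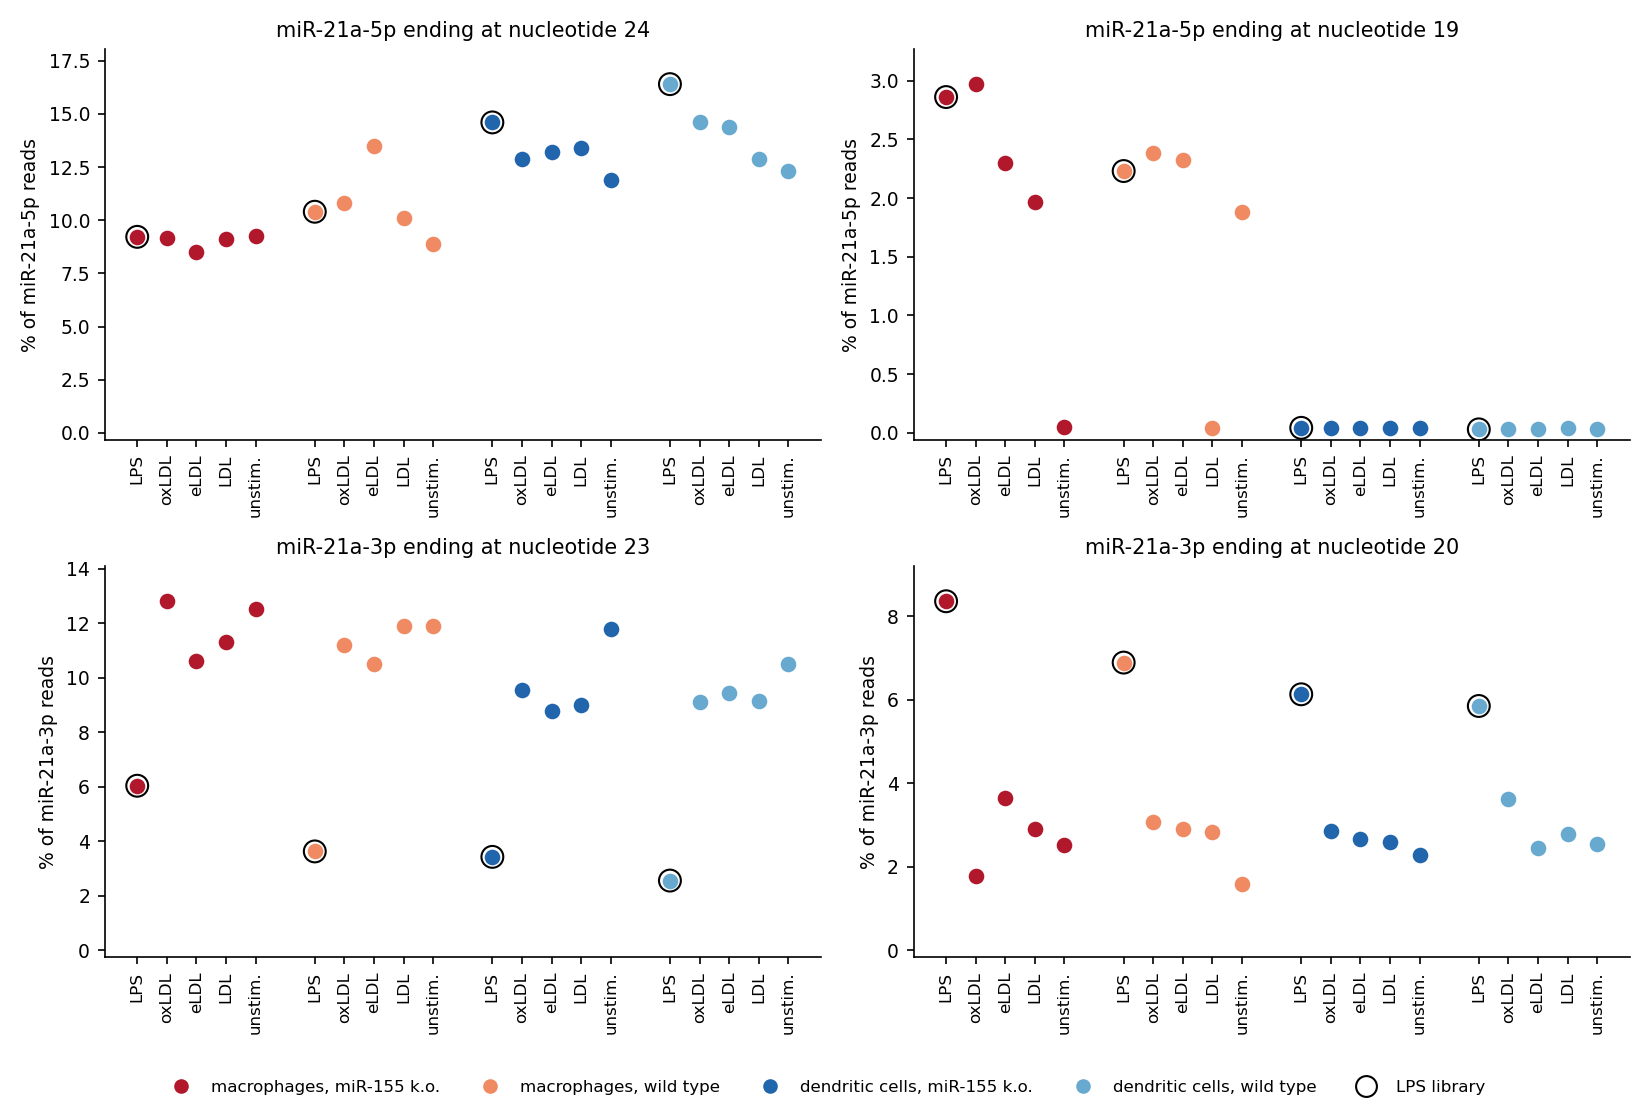
Share of miR-21a-5p reads that end at nucleotide 24 and 19 (top) and of miR-21a-3p reads that end at nucleotide 23 and 20 (bottom), in each of the 20 libraries, with LPS libraries ringed. The 4 LPS libraries are lowest for 3p ends at 23 (2.55 to 6.03%) and highest for 3p ends at 20 (5.85 to 8.36%). In 8 of 10 macrophage libraries 1.88 to 2.97% of 5p reads end at nucleotide 19.

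The main untemplated base on miR-21a-5p was C. A C tail followed 2.32%, 2.35%, 2.12%, 2.3% and 2.5% of exact and tailed miR-21a-5p reads in knockout macrophages with LPS, oxLDL, eLDL, LDL and no stimulus, and 3.66%, 3.22%, 3.87%, 2.61% and 2.26% in wild-type macrophages in the same order. In dendritic cells the share was 4.43%, 3%, 3.2%, 3.24% and 2.47% in knockout and 5.47%, 3.5%, 3.49%, 2.72% and 2.43% in wild-type cultures. The 2 LPS libraries were the highest of the dendritic cells, and unstimulated cells the lowest of each dendritic cell culture. The most abundant of these tags, with 1035621 reads, carries the C after nucleotide 23, where the hairpin has T. Such tags amounted to 19.3 to 38.3% of the templated 24-nt tags, with 31.4% and 35% in LPS-treated knockout and wild-type dendritic cells against 20.2% and 19.3% in unstimulated ones. Exchanges of T for C were counted at 5 T positions inside the 23-nt tag, and position 20 was not among them. They came to at most 0.0159% in macrophages and 0.0226% in dendritic cells. Exchanges of A for C over the same stretch reached 0.0837% in macrophages and 0.926% in dendritic cells.

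C tails were added to the tests after these values were seen, and no C tail contrast of miR-21a-5p was called. The change with LPS was 0.30 ± 0.32 on the log2 scale in macrophages (limma, adjusted p = 0.814; 1.5% of 200 arms called) and 1.04 ± 0.32 in dendritic cells (limma, adjusted p = 0.13; 1% called). The dendritic cell value passed among arms with a mean of at least 1000 reads. Macrophages against dendritic cells gave −0.27 ± 0.14 (limma, adjusted p = 0.136; 49% called). Knockout against wild type gave −0.41 ± 0.20 in macrophages (limma, adjusted p = 0.538; 2% called) and −0.08 ± 0.20 in dendritic cells (limma, adjusted p = 0.94; 1.5% called), and the difference of the LPS response between cell types was −0.74 ± 0.45 (limma, adjusted p = 0.832; 0% called, 12 at an unadjusted p under 0.05).

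**Figure D5:**
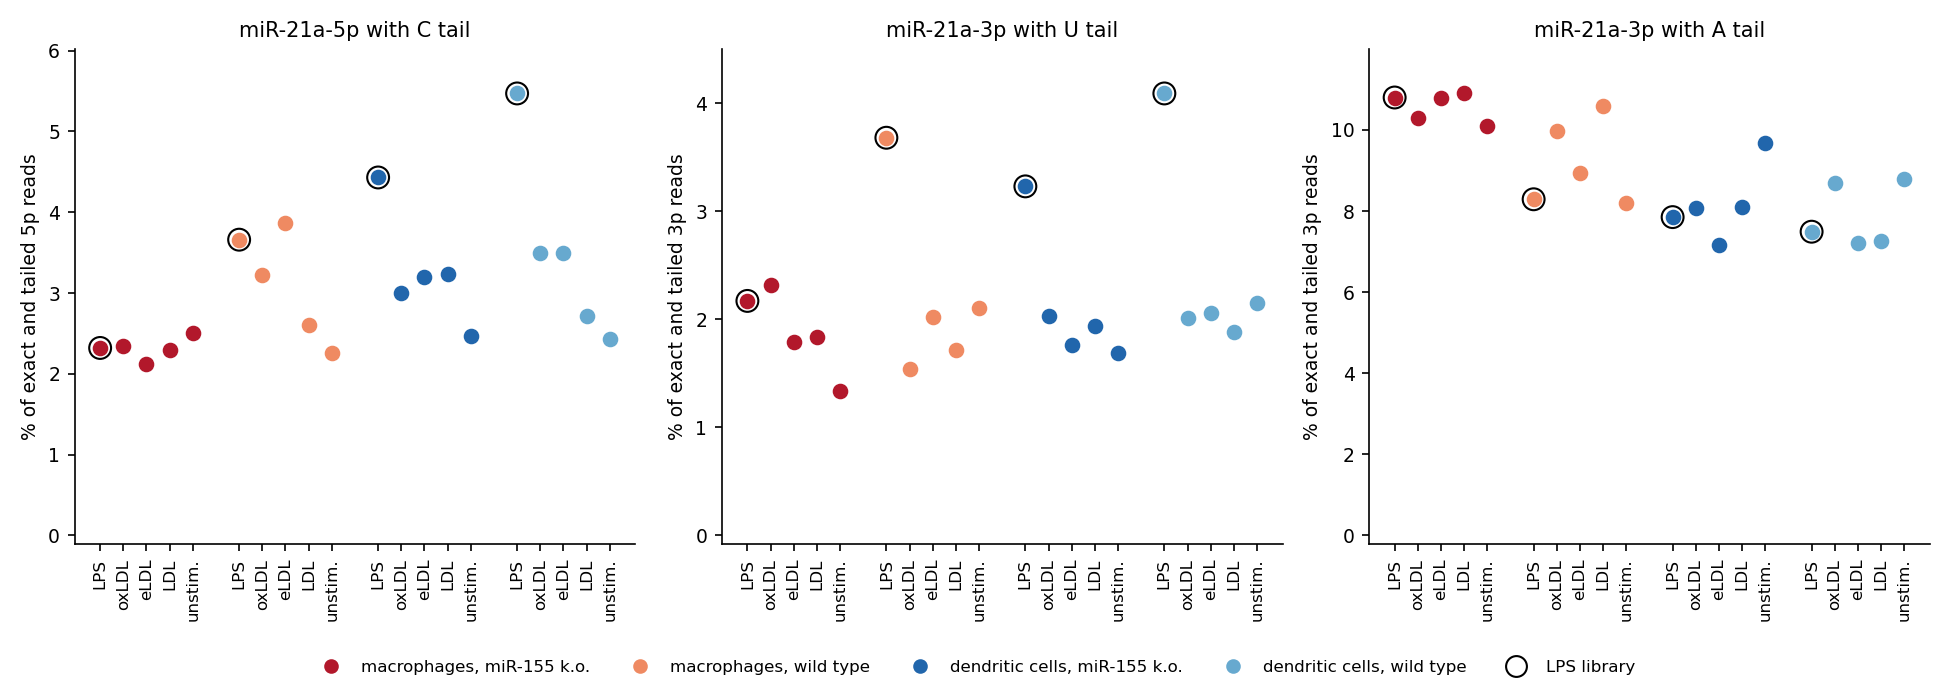
Share of exact and tailed reads that carry a C tail on miR-21a-5p (left), a U tail on miR-21a-3p (middle) and an A tail on miR-21a-3p (right), in each of the 20 libraries, with LPS libraries ringed. C tails are highest in the 2 LPS-treated dendritic cell libraries (4.43% and 5.47%), and U tails in 3 of the 4 LPS libraries (3.23 to 4.09%).

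Tails of miR-21a-3p were mostly A. The A tail share of miR-21a-3p was 8.21 to 10.9% in macrophages and 7.16 to 9.69% in dendritic cells, higher in macrophages by 0.37 ± 0.05 on the log2 scale (limma, adjusted p = 5.1e-04; 27% of 200 arms called). That of miR-21a-5p was 1.55 to 2.13% in macrophages and 1.75 to 2.72% in dendritic cells (−0.20 ± 0.07; limma, adjusted p = 0.0651). LPS gave no call for A tails: the changes of the 3p arm were 0.05 ± 0.12 in macrophages (limma, adjusted p = 0.875; 5% called) and −0.31 ± 0.12 in dendritic cells (limma, adjusted p = 0.265; 0% called, 29 at an unadjusted p under 0.05), and those of the 5p arm −0.34 ± 0.16 (adjusted p = 0.327) and −0.25 ± 0.16 (adjusted p = 0.471).

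U tails of miR-21a-3p held 2.17% and 3.68% of its reads in LPS-treated knockout and wild-type macrophages and 3.23% and 4.09% in LPS-treated knockout and wild-type dendritic cells, against 1.34 to 2.32% in the other 16 libraries. Of the LPS libraries, only that of knockout macrophages overlaps the others. The change was 0.75 ± 0.30 on the log2 scale in macrophages (limma, adjusted p = 0.195; 5.5% of 200 arms called) and 0.89 ± 0.30 in dendritic cells (limma, adjusted p = 0.0671; 19% called, and a median of 0.41 over all arms). The dendritic cell value of 0.89 passed among arms with a mean of at least 1000 reads and without the oxLDL library of wild-type or knockout macrophages. U tails of miR-21a-5p held 0.0736 to 0.153% of its reads, with LPS changes of 0.75 ± 0.24 in macrophages (limma, adjusted p = 0.135) and 0.53 ± 0.24 in dendritic cells (limma, adjusted p = 0.169). Between macrophages and dendritic cells the U tail share changed by −0.08 ± 0.13 on the 3p arm (limma, adjusted p = 0.649; 52.5% called) and −0.01 ± 0.11 on the 5p arm (adjusted p = 0.922). Tails of 1 U on the 3p arm were lower in macrophages, by −0.56 (called). Lower U tails were common in macrophages. For U tails of any counted length, 90 of 200 arms were called lower and 15 higher, with a median of −0.38.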

How the data were processed

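Small RNA of cells cultured from mouse bone marrow was sequenced in 20 libraries. Each deposited file lists tags of 18 to 45 nt with their read counts, from which the adapter had already been removed, as the tag lengths show. The labels name Trizol extraction and a TruSeq kit, and the submitters' processing notes name CASAVA 1.8.2 without its role.

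Tags were matched exactly to miRNA hairpins of GENCODE M21 (GRCm38), and arms were set by RefSeq matures. Levels are CPM of all hairpin reads. Arms that reached 5 CPM in 2 or more libraries were tested in edgeR 4.0.16 (quasi-likelihood, TMM), with the 4 cultures and the stimulus within each cell type as terms (8 residual degrees of freedom; 6 with the LPS by genotype terms). The arm ratio (0.5 reads added to each arm), the mean 3′ end and tail shares were tested in limma 3.58.1, the last 2 for arms with a mean of at least 200 exact reads (193 arms for ends, 200 for tails). Tails are 1 to 3 untemplated bases. P-values were adjusted by Benjamini-Hochberg over all features of a measure, and called means an adjusted p under 0.05. Scripts ran in R 4.3.3 and Python 3.11.15 and were tested on simulated data. DESeq2 1.42.0, other scalings, filters, tag rules and the omission of each library were alternatives. Any base at position 20, tags of 20 to 24 nt for ends, C tails, and the differences between cell types in the knockout and lipoprotein effects were added after the values were seen.

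Depth was 10.3 to 22.8 M reads a library. Named were both arms, matures with the same seed, the 3 most similar arms, up to 4 of the listed inflammatory miRNAs, the 3 largest ratio changes, and the 5 most abundant tags and leading tails of each arm. The members and lists were chosen with earlier results of these data known. G and mixed tails were left out, because macrophage tags with another base at position 20 are counted among them.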

Additional observations from a re-analysis of the deposited data

Results flagged for a closer look

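The response of miR-21a to LPS differed between the cell types by a test of the difference itself, with −2.54 for miR-21a-3p and −1.08 for miR-21a-5p (log2, macrophages minus dendritic cells). The effect of the miR-155 knockout on miR-21a-3p differed in the same way by −1.26. The effect of the lipoproteins differed by −1.68 for miR-21a-3p and −0.91 for miR-21a-5p. The knockout and lipoprotein differences were tested after the values were seen. With upper-quartile scaling, only the LPS difference of miR-21a-3p among these kept its call. Both miR-21a-5p differences also lost theirs with total hairpin reads. Leaving out single libraries ended the call of the miR-21a-5p LPS difference and of both lipoprotein differences.

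Hairpin tags of 27 to 45 nt, which enter no level, held 870 reads over all libraries, of which 831 began at the 5p start. LPS libraries had 10.5 and 10.9 of these reads per 1000000 hairpin reads in knockout and wild-type macrophages and 16.7 and 17.3 in knockout and wild-type dendritic cells. The other 16 libraries had 0.522 to 4.86, apart from wild-type dendritic cells with eLDL at 13. This was not tested.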

How the results depend on the processing

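Of the recomputed values, 2204 kept their direction and their side of the threshold, 51 lost a call, 30 gained one and 47 changed sign. The causes were not tested unless named. All values are macrophages minus dendritic cells where a difference between cell types is given. The fits match libraries by culture and stimulus, and no replicate block was added: the labels give each condition a single library and no replicate numbers.

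With total hairpin reads as scale, miR-21a-5p lost its call for LPS in dendritic cells (0.28), for the LPS difference (−0.47), for LPS against lipoproteins in dendritic cells (0.30) and for the lipoprotein difference (−0.63). Uncalled values that changed sign were the lipoprotein effect (−0.02), the knockout effect (−0.02) and the LPS by genotype term (0.11) of miR-21a-5p in dendritic cells and oxLDL against LDL for miR-21a-3p in macrophages (0.05). With upper-quartile scaling, calls ended for miR-21a-5p with LPS in dendritic cells (0.62), its LPS difference (−0.87), miR-21a-3p in knockout macrophages (−0.56), its knockout difference (−0.89), and the lipoprotein difference of miR-21a-3p (−1.64) and miR-21a-5p (−0.87). Signs changed for miR-21a-5p with lipoproteins in dendritic cells (−0.02), in knockout macrophages (0.10) and in the knockout difference (0.03). With no filter on low counts, miR-21a-3p was called with lipoproteins (0.58) and in knockout cells (0.37) of the dendritic type, and in the LPS by genotype term of macrophages (−1.10). With tailed tags counted, miR-21a-5p in knockout dendritic cells was −0.07, and with tags of 20 to 24 nt, miR-21a-3p with oxLDL against LDL in macrophages was 0.01. DESeq2 changed no call or sign of either arm.

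For ends and tails, a mean of 1000 reads tests fewer arms and called the 5p end difference with LPS (−0.22), the 5p end in knockout macrophages (−0.11), the A tail of 3p in knockout macrophages (0.24) and of 5p between cell types (−0.20), the 3p U tail (0.89) and the 5p C tail (1.04) with LPS in dendritic cells. A pseudocount of 5 reads called the 5p A tail between cell types (−0.20). With tails of 1 nt the 3p U tail was 0.20 for the LPS difference and −0.56 (called) between cell types, and the 5p U tail 0.02 between cell types. Over tags of 20 to 24 nt the 5p end was called with LPS in dendritic cells (0.10), not in macrophages (−0.04), and was called for their difference (−0.14) and in knockout dendritic cells (−0.08) and macrophages (−0.10), and the 3p end between cell types was 0.05. With any base at position 20 the 5p end in knockout macrophages was called (−0.11), the 3p end between cell types was 0.02, and the 3p U tail was 0.01 for the LPS difference and −0.56 (called) between cell types.

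Leaving out each library in turn gave these ranges where a call or sign changed. For levels of miR-21a-5p they were 0.58 to 0.89 with LPS in dendritic cells, −1.30 to −0.72 for the LPS difference, −0.93 to −0.62 with lipoproteins in macrophages, −1.04 to −0.71 for the lipoprotein difference, 0.37 to 0.71 and 0.55 to 0.75 with LPS against lipoproteins in macrophages and dendritic cells, −0.71 to 0.09 and −0.08 to 0.14 with eLDL against LDL in macrophages and dendritic cells, −0.39 to −0.07 in knockout macrophages, −0.50 to −0.13 for the knockout difference, and −0.53 to 0.01 and −0.12 to 0.11 for the LPS by genotype term in macrophages and dendritic cells. For levels of miR-21a-3p they were −0.51 to 0.57 with LPS in macrophages, −1.22 to −0.77 with lipoproteins in macrophages, −1.83 to −1.37 for the lipoprotein difference, 0.56 to 1.55 with LPS against lipoproteins in macrophages, −0.35 to 0.21 with oxLDL against LDL in macrophages and −0.09 to 0.33 with eLDL against LDL in dendritic cells. For the ratio they were −0.09 to 0.59 and 1.46 to 2.02 with LPS in macrophages and dendritic cells, −0.60 to 0.08 with lipoproteins in macrophages and 0.98 to 1.54 with LPS against lipoproteins in dendritic cells. For the 5p end they were −0.21 to −0.03 and 0.10 to 0.11 with LPS in macrophages and dendritic cells, −0.31 to −0.13 for their difference, and −0.15 to −0.10 and −0.09 to −0.07 in knockout macrophages and dendritic cells. For tails they were −0.05 to 0.16 (3p A with LPS in macrophages), −0.19 to 0.01 (5p A, LPS difference), 0.78 to 1.0 (3p U with LPS in dendritic cells), −0.51 to 0.23 (3p U, LPS difference), −0.11 to 0.54 (5p U, LPS difference), −0.17 to 0.02 and −0.08 to 0.05 (3p and 5p U between cell types) and −0.05 to 0.65 (5p C with LPS in macrophages).

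Depth does not limit the levels, since counting error is at most 2.9% of a value. The single library per condition does: LPS effects rest on 2 pairs, and a condition's library and its stimulus cannot be told apart. Nor can genotype and the mice used.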
